A study of Mus musculus with 27 samples.

Results

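The Hox genes of the mouse were described here through DNA methylation in hepatocytes, the liver's parenchymal cells. They were chosen by name: every protein-coding gene of the GRCm38 gene table whose symbol is Hox followed by a letter from a to d and a number. This gave 39 of the 21900 protein-coding genes of the table, in 4 clusters. A gene's window is its span plus 2 kb on either side, and 5663 CpG positions in these windows were listed in all 27 samples, of 1692477 such positions in the whole series. Of the 5663 positions, 1181 lay in more than 1 Hox window, because the genes of a cluster stand close together or within each other's spans. In the gene table the spans of Hoxa3, Hoxb3 and Hoxd3 each contain at least 1 whole Hox gene of a higher number.

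Hox genes encode homeodomain transcription factors that give cells of the embryo their position along the head-to-tail axis. The genes lie in the clusters in the order of the body levels at which they act, from paralogue 1 (anterior, such as the hindbrain) to paralogue 13 (posterior, such as the digits and tail). Genes with the same number in different clusters are paralogues, copies from ancient duplications. In most adult tissues the clusters are held silent by Polycomb complexes, and CpG islands bound by these complexes are typically low in DNA methylation.

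The study set histone marks, DNA methylation and gene expression beside each other to ask how genetic variation between inbred strains relates to them, and the methylation data alone are used here. Hepatocytes came from livers of 27 female mice aged 12 weeks, and the labels name no treatment. There were 3 biological replicates of each of 9 strains. The wild-derived strains were PWK/PhJ, WSB/EiJ and CAST/EiJ, and the laboratory strains were C57BL/6J, A/J, 129S1/SvImJ, NZO/HlLtJ, NOD/ShiLtJ and DBA/2J, with no strain as a control. Methylation was read by reduced representation bisulfite sequencing, in which the enzyme MspI cuts DNA at CCGG so that CpG-rich fragments are sequenced. Each value is the percent of reads at a position that were methylated. Read counts are not part of the files, so depth is unknown and the counting error of a value cannot be estimated.

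Between 2904787 and 3156965 positions were listed per sample. Within Hox windows 62.2% of the 9105 positions listed in any sample were listed in all 27, against 32.3% in the whole series. Around the ends of hepatocyte genes such as Cebpa and Hnf4a, all 6 of the 12 marker genes with at least 5 shared positions within 1 kb had a mean under 20%. Of the markers of other liver cells, Clec4f of Kupffer cells was at 90.4%, whereas Spi1 of leukocytes was at 6.77%, Kdr of endothelium at 8.08% and Reln of stellate cells at 0.616%. All 3 stellate genes were under 20%. The 4 cholangiocyte genes ran from 1.03% at Sox9 to 33.9% at Epcam, and 1 of them was under 20%. Markers with fewer than 5 positions were higher: Tat of hepatocytes at 27.9% (1 position), Adgre1 of Kupffer cells at 86.9% (4 positions) and Pecam1 of endothelium at 90.4% (1 position). Low levels thus stood near some markers of other liver cells too, and higher levels near others. Files of C57BL/6J name the mitochondrial chromosome M and those of the other strains MT, so for C57BL/6J an effect of strain and one of file processing cannot be told apart.

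Methylation of the Hox clusters was low in every sample and at most positions measured. The mean over the 5663 positions was 5.22% ± 0.722 (SD, n = 27 samples), with a lowest sample of 3.83%, a median of 5.23% and a highest of 6.53%. Of the positions, 4950 (87.4%) had a mean under 10%, 7 had a mean of 50% or more, and 0 reached 80%. In the windows of all other protein-coding genes the mean was 22.3% ± 0.385 (SD, n = 27), and 18.6% of 1444777 positions had a mean of 80% or more. The Hox gene windows held none of this upper class among the shared positions.

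The Hox positions were low without being at the floor. Only 10.6% of them had a mean under 1%, against 48.4% of positions in other protein-coding windows, and the median position stood at 3.34% in Hox windows and at 1.11% in the others. The class of 2 to 5% held 38.2% of Hox positions, more than any other class, and that of 5 to 10% held 20.9%. A position at exactly 0 in all 27 samples was found 65 times, which is 1.15% of Hox positions against 11.9% elsewhere. The windows of 68 other developmental transcription factor genes (such as Sox, Lhx and Nkx genes) lay in between, with a median position of 2.39% and 22.8% of 14601 positions under 1%.

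The low level extended to sparsely placed positions. Among positions with no more than 3 other shared positions within 100 bp, the mean was 10.2% in Hox windows (342 positions, 7.86 to 12.8% across samples) and 70.9% in other protein-coding windows (202925 positions, 69.6 to 72.3%). The other developmental genes were at 44.3% in this class. Among positions with 24 or more neighbours the order was turned: 4.04% in Hox windows (3.07 to 5.28% across samples) and 2.21% elsewhere (1.89 to 2.58%). In both of these classes the ranges over the 27 samples of Hox and other windows did not overlap. In the 3 classes below 16 neighbours and in that of 16 to 23 (4.53% against 7.14%) the Hox mean was the lower one. The neighbours counted are measured positions, not all CpGs.

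**Figure D1:**
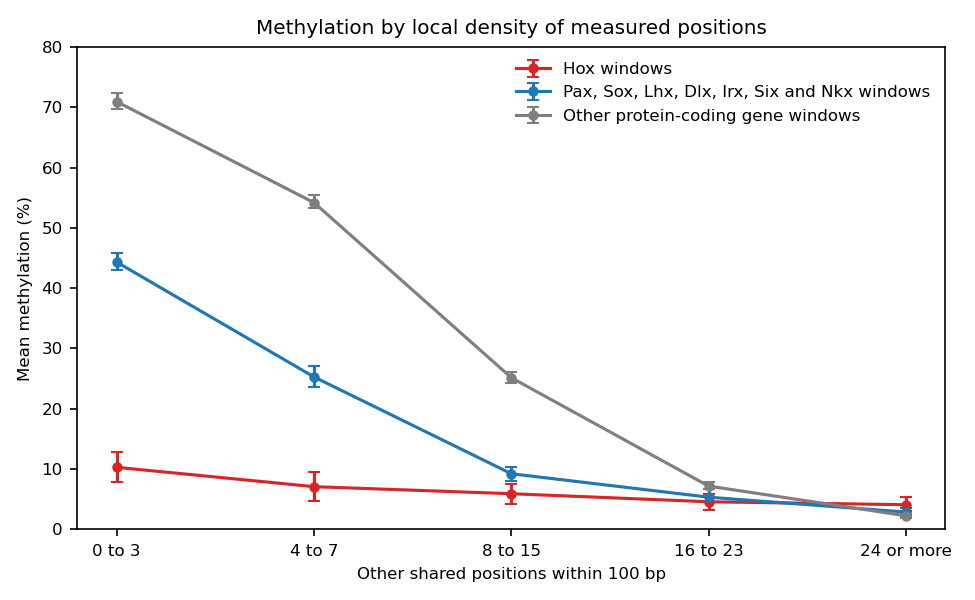
Mean methylation (y axis, percent) of shared positions by the number of other shared positions within 100 bp (x axis), in Hox windows (red), in windows of other developmental transcription factor genes (blue) and in all other protein-coding windows (grey). Points are means over 27 samples and bars run from the lowest to the highest sample. Hox windows run from 10.2% at the sparsest positions to 4.04% at the densest, and other windows from 70.9 to 2.21%.

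Sequences just before the gene starts give examples of CpG context, whose part in the levels was not tested. RefSeq promoter entries (GRCm38.p6) matched 22 of the 39 Hox genes in 24 windows, and 10 windows held at least 5 shared positions in the 250 bases before the start. Their median was 4.53%, from 1.86 to 33.4%, and 9 of 10 were under 10%. The same measure over 9383 windows of other genes gave a median of 0.560%, with 92.8% of windows under 10%. A CpG-dense low promoter (Hoxa13), the promoter that was high (Hoxd4) and the promoter that holds a position differing between strains (Hoxd10) are given, each 5′ to 3′ on the gene's strand with the measured CpGs in capitals.

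Hoxa13, chr6:52260881-52261130, minus strand: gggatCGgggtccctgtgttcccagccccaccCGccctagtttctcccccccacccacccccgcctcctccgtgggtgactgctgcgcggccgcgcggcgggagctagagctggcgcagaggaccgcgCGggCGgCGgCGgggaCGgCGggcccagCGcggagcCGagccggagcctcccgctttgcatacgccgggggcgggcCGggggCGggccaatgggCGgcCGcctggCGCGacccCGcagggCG
Hoxd4, chr2:74721728-74721977, plus strand: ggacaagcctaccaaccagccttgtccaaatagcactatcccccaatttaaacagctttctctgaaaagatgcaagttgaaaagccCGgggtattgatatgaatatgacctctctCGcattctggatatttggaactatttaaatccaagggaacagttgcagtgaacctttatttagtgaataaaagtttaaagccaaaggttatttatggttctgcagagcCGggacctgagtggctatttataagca
Hoxd10, chr2:74691641-74691890, plus strand: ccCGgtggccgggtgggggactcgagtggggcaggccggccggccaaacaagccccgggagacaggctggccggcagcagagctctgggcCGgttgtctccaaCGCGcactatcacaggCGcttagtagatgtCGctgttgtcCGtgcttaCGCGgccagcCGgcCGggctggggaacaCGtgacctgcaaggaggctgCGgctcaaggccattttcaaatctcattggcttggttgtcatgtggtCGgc

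The Hoxa13 stretch holds 35 CpGs, of which 18 were measured at 25 positions (a CpG has a position on each strand), and its mean was 2.03% (0.174 to 6.48% across samples). Hoxa13 patterns the distal limb and the genital tract. The Hoxd4 stretch, from a gene that patterns the hindbrain and neck vertebrae, holds 3 CpGs, and all 3 were measured at 5 positions. Its mean was 33.4%, with a lowest sample of 14.2% and a highest of 52.9%. The 5 positions were all intermediate: their means were 24.9, 30.2, 30.1, 40.6 and 41.4% from the farthest to the nearest, which lie 164, 135, 134, 27 and 26 bases before the start. By strain this stretch was highest in A/J, at 49.2% ± 3.41 (SD, n = 3), and lowest in DBA/2J, at 25.2% ± 9.58 (SD, n = 3), and none of its 5 positions passed the test between strains. The Hoxd10 stretch holds 20 CpGs, 14 of them measured, with a mean of 4.02%, and is taken up again below.

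By cluster, the mean level was 5.58% ± 0.830 for Hoxa (chr6:52155367-52260880, 11 genes, 1686 positions), 5.70% ± 0.766 for Hoxb (chr11:96194316-96368254, 10 genes, 1269 positions), 5.24% ± 0.792 for Hoxc (chr15:102921131-103036856, 9 genes, 1061 positions) and 4.47% ± 0.620 for Hoxd (chr2:74668225-74765142, 9 genes, 1647 positions; SD over n = 27 samples in each). The lowest Hoxd sample was at 3.36% and the highest at 5.66%, and the lowest Hoxb sample at 4.13% and the highest at 7.46%. These ranges overlapped, but Hoxd had the lowest mean of the 4 clusters in each of the 9 strains, for example 5.55% in PWK/PhJ against 6.25 to 7.22% and 3.55% in WSB/EiJ against 4.16 to 4.52%. The share of positions under 10% was 85.0% in Hoxa, 85.7% in Hoxb, 86.9% in Hoxc and 91.6% in Hoxd.

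All 39 genes had at least 5 shared positions, and their window means spanned 2.66 to 10.3%. In Hoxa the lowest window was Hoxa13, with a lowest sample of 1.86%, a median of 2.59% and a highest of 4.30%. The highest was Hoxa5, a gene needed for the airways and the lower neck, with 5.06, 7.48 and 9.35%. In Hoxb the lowest was Hoxb9, which acts at thoracic levels, with 2.85, 4.06 and 5.15%, and the highest was Hoxb13, of the tail bud and prostate, with 7.52, 10.4 and 13.6%. The sample ranges of the lowest and highest gene did not overlap in Hoxa or in Hoxb.

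In Hoxc the lowest window was Hoxc11, a hindlimb gene, with a lowest sample of 2.09%, a median of 4.15% and a highest of 5.46%. The highest was Hoxc10, of lumbar levels, with 4.76, 6.25 and 8.73%, and the ranges overlapped. In Hoxd the lowest was Hoxd8, a trunk gene, with 1.86, 2.51 and 3.93%, and the highest was Hoxd4, with 5.31, 8.94 and 12.8%, with no overlap.

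Paralogue number did not order the levels steadily. The union of windows was lowest for paralogue 8, at 4.20% over 485 positions, and highest for paralogue 5, at 7.18% over 340 positions. Paralogues 1 to 3 (8 genes) averaged 5.53%, paralogues 4 to 8 (15 genes) 5.71% and paralogues 9 to 13 (16 genes) 4.95%, and the sample ranges of these classes overlapped (4.04 to 6.98%, 4.07 to 7.30% and 3.73 to 6.22%). The classes share positions and are not separate sets. In the gene table the span of Hoxa3 contains Hoxa4, Hoxa5 and Hoxa6, that of Hoxb3 contains Hoxb4, and that of Hoxd3 contains Hoxd4. Genes of the same number differed between clusters: the 4 windows of paralogue 13 spanned 2.66% for Hoxa13 to 10.3% for Hoxb13. Hoxb13 stands apart from the rest of its cluster and its window rests on 53 positions. Its highest positions, at 68.1 and 52.3%, lay in the window but outside the gene's span.

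**Figure D2:**
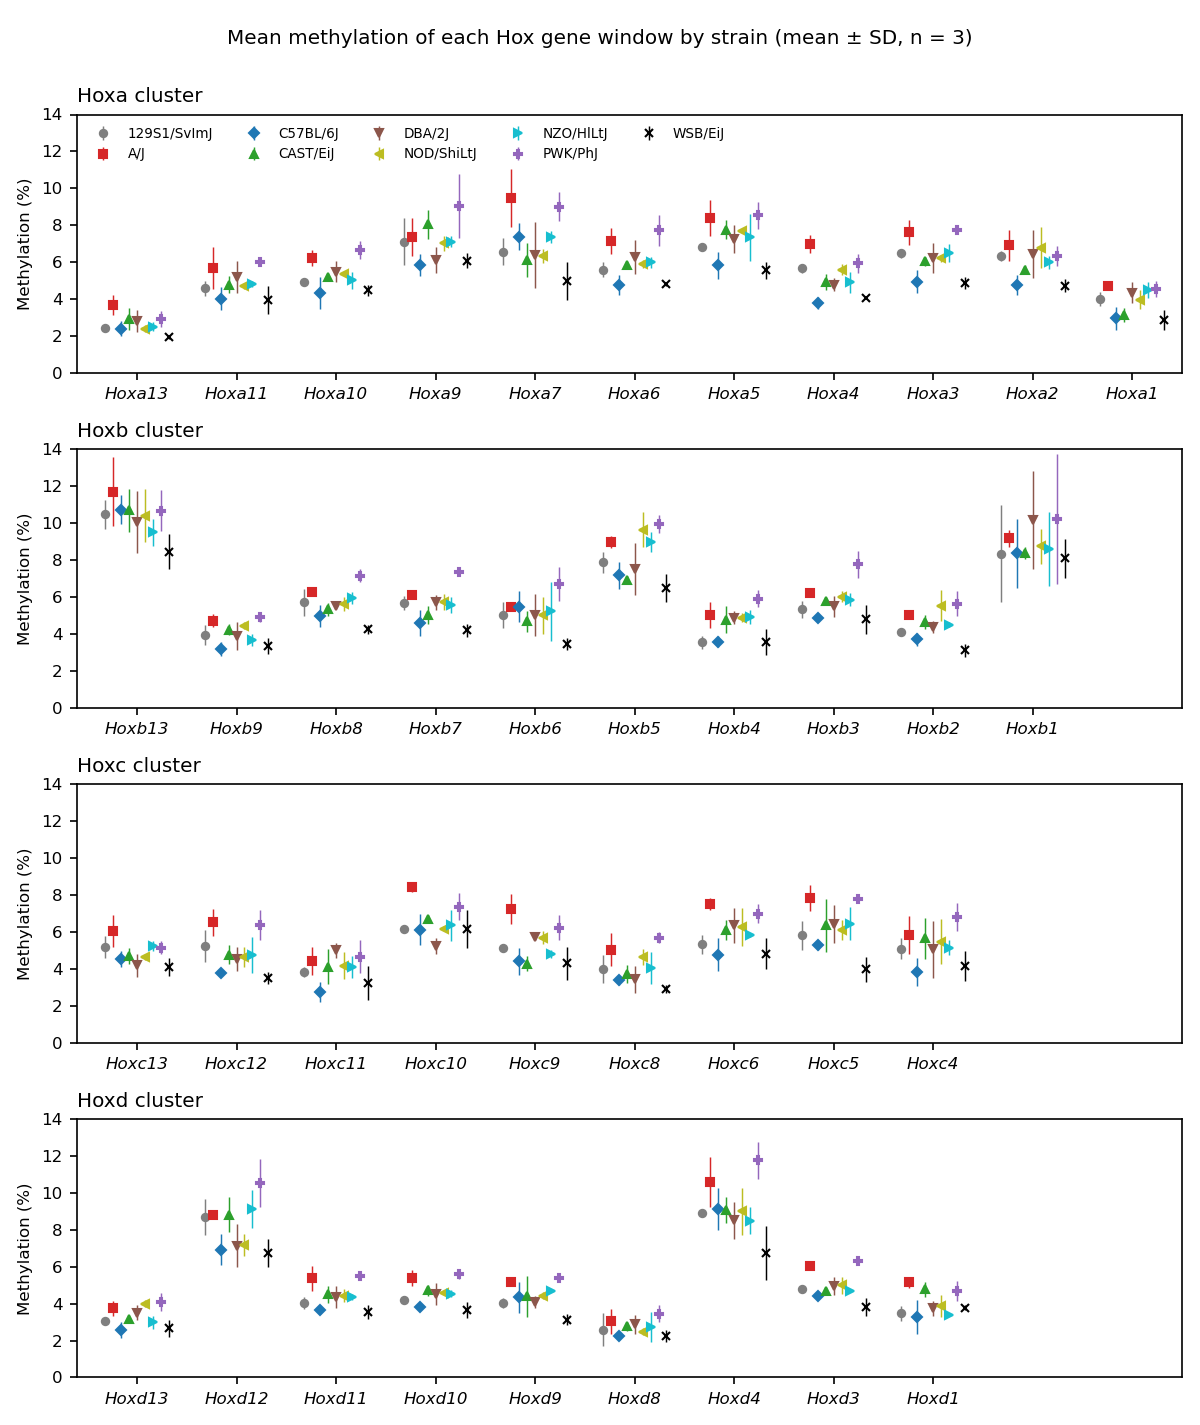
Mean methylation (y axis, percent) of each Hox gene window in each strain, 1 panel per cluster, with genes ordered from paralogue 13 to paralogue 1 (x axis). Symbols are strain means of 3 samples and bars are SD. All values lie under 14%, PWK/PhJ (purple) or A/J (red) is highest for 38 of 39 genes, and WSB/EiJ (black) or C57BL/6J (blue) is lowest for 37.

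The low level extended past the windows into the rest of the clusters. Positions inside a cluster but outside every window averaged 4.42% in Hoxa (144 positions), 10.1% in Hoxb (216), 7.73% in Hoxc (135) and 5.65% in Hoxd (80). In Hoxb a 5 kb bin with its middle 37.5 kb from the outer end of Hoxb13, in the long gap before Hoxb9, was at 85.2% (10 positions, 76.7 to 95.7% across samples), and a bin in Hoxa with its middle at 77.5 kb was at 27.8% (12 positions, 18.5 to 38.8%). Beyond the clusters, the first 10 kb bin at 50% or more lay 20 to 30 kb past the paralogue 13 end of Hoxa (78.9%, 20 positions) and of Hoxd (77.8%, 8 positions), and 30 to 40 kb past that end of Hoxb (79.2%, 6 positions). On the paralogue 1 side it lay 50 to 60 kb from Hoxa (93.1%, 13 positions), 40 to 50 kb from Hoxb (90.8%, 6 positions) and 80 to 90 kb from Hoxc (69.0%, 17 positions). Gaps limit these distances: on this side no shared position lay 10 to 50 kb from Hoxa or 0 to 30 kb from Hoxb. For Hoxc the bins at 10 to 20, 30 to 40 and 50 to 60 kb held none. The level in these gaps is unknown. Low stretches also lay farther out, as 50 to 60 kb past the paralogue 13 end of Hoxa (6.47%, 160 positions). On the 2 remaining sides no bin with at least 5 positions within 100 kb reached 50%, and each side had 2 such bins.

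**Figure D3:**
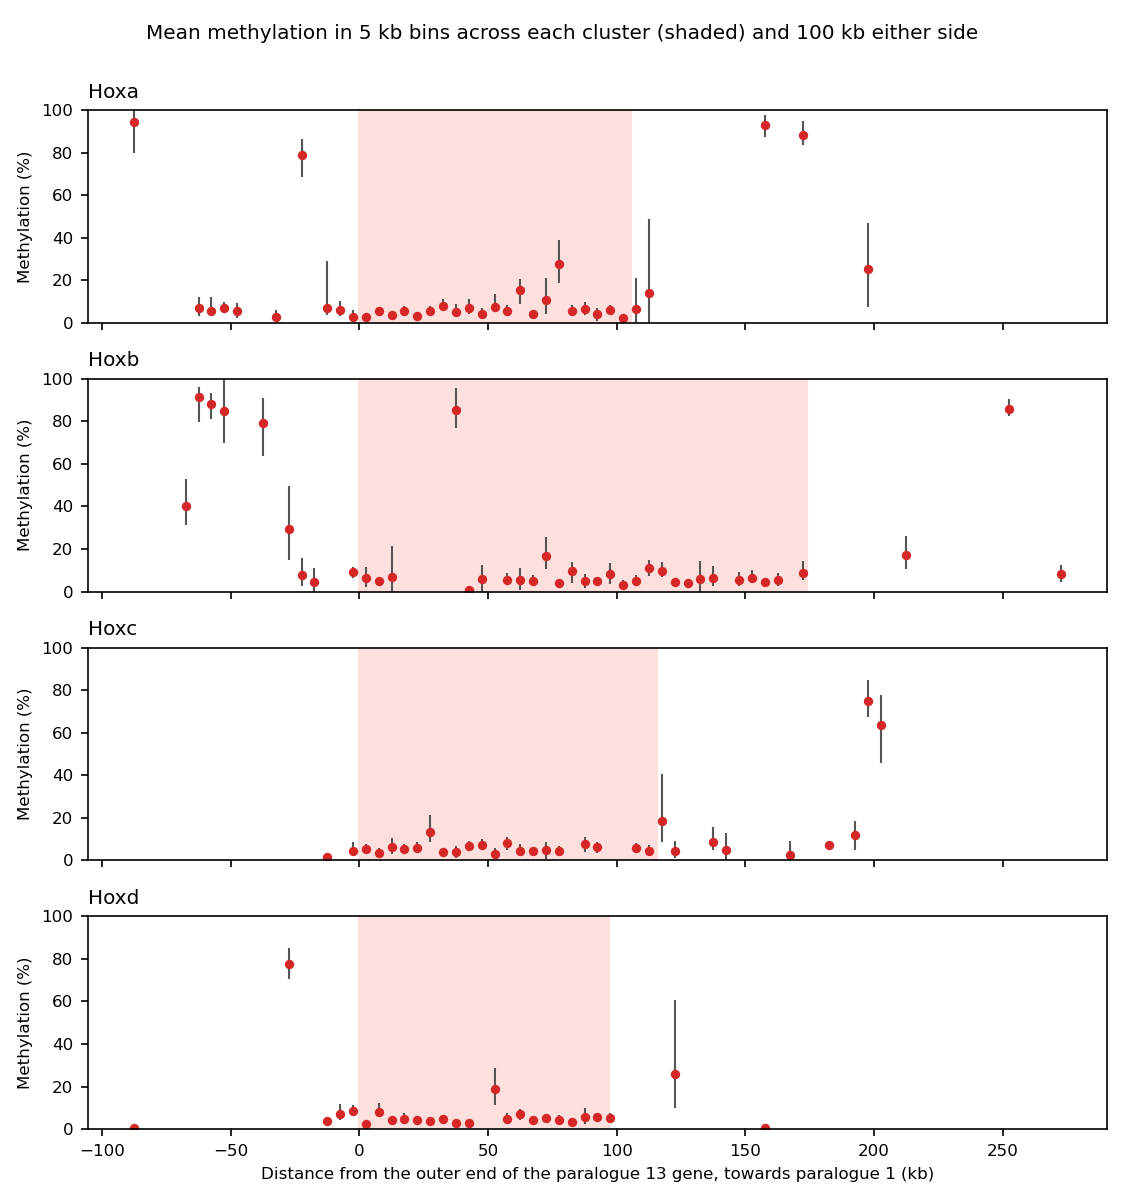
Mean methylation (y axis, percent) in 5 kb bins with at least 5 shared positions, by distance from the outer end of the paralogue 13 gene towards paralogue 1 (x axis, kb), with each cluster shaded. Points are means over 27 samples and lines run from the lowest to the highest sample. Bins inside the shading lie under 20% apart from a bin of 85.2% in Hoxb and a bin of 27.8% in Hoxa, and bins of 63.6 to 94.3% appear beyond both ends of Hoxa and Hoxb and 1 end of Hoxc and Hoxd.

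Strains differed in the level of the clusters by a few points, and PWK/PhJ or A/J was the highest strain and WSB/EiJ or C57BL/6J the lowest in most genes. Over all Hox positions PWK/PhJ samples were at 6.37, 6.45 and 6.53% and A/J samples at 5.89, 6.18 and 6.39%. WSB/EiJ samples were at 3.83, 4.07 and 4.52% and C57BL/6J samples at 4.37, 4.42 and 4.53%. The 15 samples of the other strains lay between 4.56 and 5.47%. Thus the 6 samples of PWK/PhJ and A/J stood above the other 21, and the 6 of WSB/EiJ and C57BL/6J below the rest.

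Strain means were 6.45% ± 0.0816 in PWK/PhJ, 6.15% ± 0.251 in A/J, 5.30% ± 0.0638 in NOD/ShiLtJ, 5.20% ± 0.0986 in NZO/HlLtJ and 5.14% ± 0.146 in CAST/EiJ (SD, n = 3 each). They were 5.10% ± 0.476 in DBA/2J, 5.05% ± 0.139 in 129S1/SvImJ, 4.44% ± 0.0819 in C57BL/6J and 4.14% ± 0.349 in WSB/EiJ (SD, n = 3 each). PWK/PhJ and A/J overlapped in their samples, as did C57BL/6J and WSB/EiJ, and the NOD/ShiLtJ samples (5.25 to 5.37%) lay above all samples of 129S1/SvImJ and CAST/EiJ (up to 5.23%) but overlapped with NZO/HlLtJ and DBA/2J. WSB/EiJ was lowest in each of the 4 clusters, and PWK/PhJ was highest in Hoxa (6.87% ± 0.175), Hoxb (7.22% ± 0.241) and Hoxd (5.55% ± 0.174; SD, n = 3). In Hoxc A/J was highest, at 6.58% ± 0.282 (SD, n = 3), with PWK/PhJ at 6.25% ± 0.0885.

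**Figure D4:**
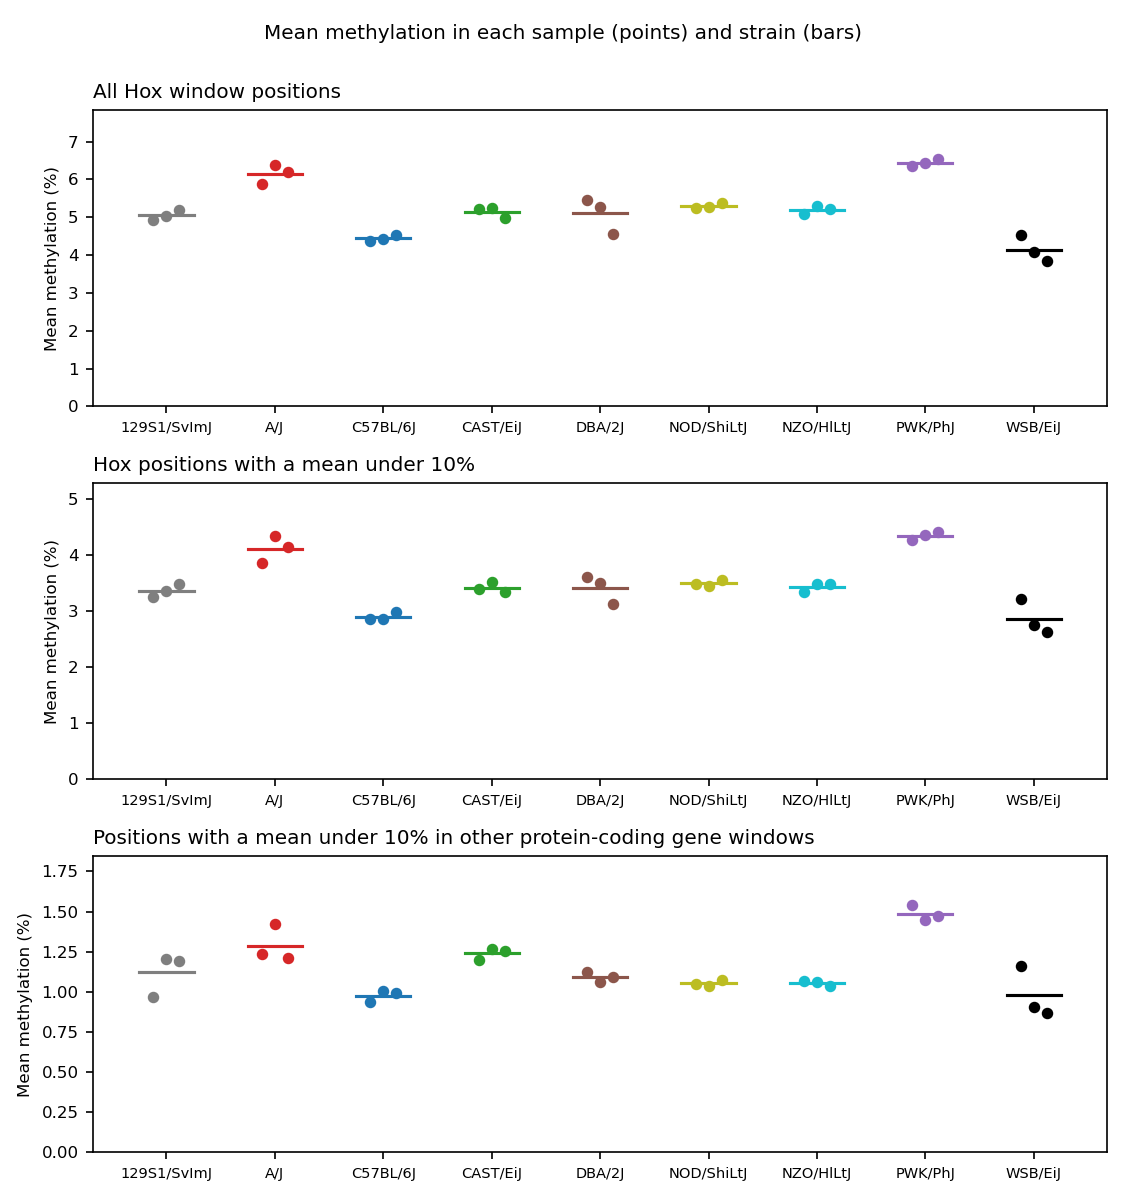
Mean methylation (y axis, percent, from 0) of each sample (points) and strain (horizontal lines), by strain (x axis), over all Hox positions (top), Hox positions with a mean under 10% (middle) and positions with a mean under 10% in other protein-coding windows (bottom). PWK/PhJ is highest in all 3 panels, at 6.45, 4.35 and 1.48%, and WSB/EiJ and C57BL/6J are the lowest strains in all 3.

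The moderated F test of limma was run on the window means of all protein-coding genes with at least 5 shared positions, with strain as a factor and Benjamini-Hochberg adjustment. An adjusted p under 0.05 was reached by 34 of 39 Hox genes, against 38.3% of the 16349 genes tested, and by 11 of 11 genes in Hoxa, 7 of 10 in Hoxb, 8 of 9 in Hoxc and 8 of 9 in Hoxd. Hoxb1, Hoxb6, Hoxb13, Hoxc4 and Hoxd8 did not pass. The other developmental transcription factors showed a like share, with 56 of 67 (83.6%), whereas 36.4% of 3332 other protein-coding genes with a mean inside the Hox range passed. Hox windows rested on a median of 138 positions, those of the developmental factors on 213, those of genes in the Hox range on 103 and all windows tested on 78, and the part of these numbers in the result was not tested. Neighbouring Hox windows share positions, so the genes are not independent of each other.

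The sizes were small. The median range between the lowest and highest strain was 2.79 points in Hox genes, 2.10 points in all genes tested, 1.13 points in genes with a mean inside the Hox range and 2.36 points in the developmental factors. With the added demand of a range of at least 5 points, 1 of 39 Hox genes (2.56%) was called, against 15.8% of all genes tested. Among the 3332 genes with a mean inside the Hox range 5.58% were called, and among the developmental factors 4.48%. This was Hoxd4, with 10.8, 11.7 and 12.8% in PWK/PhJ and 5.31, 6.72 and 8.20% in WSB/EiJ. These strains did not overlap with each other, and both overlapped with samples of the other strains, which lay between 7.66 and 11.6%. Its strain means were 11.8% ± 1.00 and 6.75% ± 1.44 (SD, n = 3), a range of 5.03 points (limma, adjusted p = 0.00459). The range lies just over the 5 points demanded. Without PWK/PhJ replicate 1 no Hox gene was called (15.3% of all genes tested), and without A/J replicate 1 the count was 2 (15.5%). With windows of 5 kb on either side the count was 0 (16.6%).

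All 3 PWK/PhJ samples lay above all 3 WSB/EiJ samples in 36 of 39 Hox genes, against 33.2% of all genes tested, and all 3 A/J samples lay above all 3 C57BL/6J samples in 31 of 39, against 27.8%. The first of these counts was 53 of 67 (79.1%) among the developmental factors. These pairs were chosen after the strain levels were seen. PWK/PhJ was the highest strain for 25 genes, A/J for 13 and DBA/2J for 1. WSB/EiJ was the lowest for 27 genes, C57BL/6J for 10, CAST/EiJ for 1 and DBA/2J for 1. Hoxa4, a neck vertebra gene, had a small adjusted p (limma, 1.95e-06), with A/J at 6.96% ± 0.490 and C57BL/6J at 3.77% ± 0.320 (SD, n = 3).

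Among positions with a mean under 10% outside the Hox windows, the highest and the lowest strain means belonged to the same 4 strains, with overlaps. In 1034613 such positions of other protein-coding windows the mean was 1.48% ± 0.0480 in PWK/PhJ, 1.29% ± 0.115 in A/J, 0.977% ± 0.160 in WSB/EiJ and 0.977% ± 0.0346 in C57BL/6J (SD, n = 3). CAST/EiJ, at 1.24% ± 0.0372 (SD, n = 3), overlapped with A/J, and the highest WSB/EiJ sample, at 1.16%, lay above all samples of NOD/ShiLtJ, NZO/HlLtJ and DBA/2J. The highest strain was 1.52 times the lowest there, and also 1.52 times at the 4950 Hox positions under 10% (4.35% in PWK/PhJ, 2.87% in WSB/EiJ). In the developmental factors the positions under 10% were at 3.15% in PWK/PhJ and 1.99% in WSB/EiJ, a ratio of 1.58. The share of Hox positions listed at exactly 0 ran from 45.2 to 69.3% per sample, with 61.6 to 69.3% in the C57BL/6J samples. A sample of 129S1/SvImJ (62.6%) and one of WSB/EiJ (62.3%) also lay in that range. In other protein-coding windows the share ran from 58.3 to 67.0%, with 63.6 to 67.0% in the C57BL/6J samples. The part of such sample-wide differences in the Hox strain order was not tested.

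Single positions rarely differed between strains. Of 4061 Hox positions with a mean of 2 to 98%, 12 were called, that is, had strain means at least 25 points apart and an adjusted p under 0.05, which is 0.295%, against 4.56% of the 770725 positions tested. The median range was 9.69 points at Hox positions and 14.3 points at all positions tested. The part of the low Hox level in these numbers was not tested. With means of 10 to 90% alone, 13 Hox positions were called, against 11.6% of all positions tested. Of Hox positions, 542 had a mean of 10 to 20%, 164 of 20 to 50% and 7 of 50 to 80%. Of the 12 positions called at means of 2 to 98%, 6 lay in Hoxa, 0 in Hoxb, 3 in Hoxc and 3 in Hoxd. The 0 of 945 in Hoxb is a count of limma calls. Over all clusters 282 of the 4061 Hox positions had an unadjusted p under 0.05, against 123155 of all 770725 positions tested. An adjusted p under 0.05 was reached by 22 Hox positions, against 38704 of all positions tested. The 12 calls were sensitive to single samples: 3 of them were called whichever sample was left out. Without PWK/PhJ replicate 2 the count was 7 (4.05% of all positions tested).

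**Figure D5:**
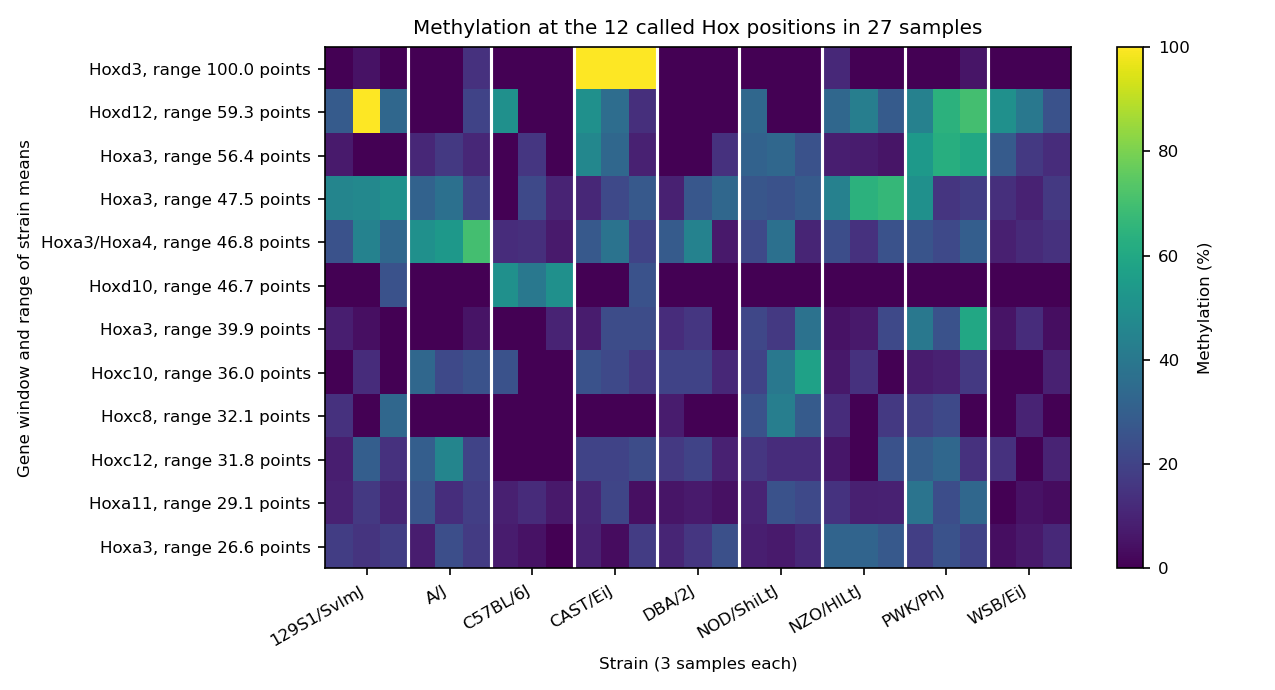
Methylation (colour, 0 to 100%) at the 12 called Hox positions (rows, named by gene window and ordered by the range of strain means) in the 27 samples (columns, 3 per strain, strains parted by white lines). The top row is at 100% in the 3 CAST/EiJ samples and at most 14.3% in the other 24, and most other rows show intermediate values in several strains.

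A position within Hoxd3, which patterns the first vertebrae, differed most (chr2:74738712). It was at 100, 100 and 100% in CAST/EiJ and at 0 to 14.3% in the other 24 samples (limma, adjusted p = 1.43e-09). This was the 1 Hox position of 4061 at which all samples of a strain stood at least 25 points apart from every other sample, against 0.418% of all positions tested. The 8 other shared positions within 50 bp had CAST/EiJ means of 0 to 6.31%. Among the shared positions within 50 bp the high value was thus limited to 1 position. The other strand of this CpG was not among the shared positions, and the cause of the high value was not tested.

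The next position called in all left-out fits lies in the Hoxd10 sequence printed above (chr2:74691774), 117 bases before the start and within the gene's span in the gene table. Hoxd10 acts in the lumbar spinal cord and hindlimb. C57BL/6J samples were at 50, 40 and 50%, 1 sample of 129S1/SvImJ and 1 of CAST/EiJ at 25%, and the other 22 samples at 0 (limma, adjusted p = 0.00116). C57BL/6J did not overlap with the other strains. The position on the other strand of the same CpG, 1 base on, was at 0 in the C57BL/6J mean and at 2.20% over all samples, and did not pass (limma, adjusted p = 0.896). The 17 other shared positions within 50 bp had C57BL/6J means of 0 to 33.3%, with 33.3% at chr2:74691792 and 30% at chr2:74691746, and none of them was called.

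The third such position lies within the span of Hoxa3, a gene needed for the thymus and parathyroid (chr6:52175755). PWK/PhJ samples were at 53.8, 62.5 and 60%, and the highest sample of any other strain was at 46.2%, in CAST/EiJ (limma, adjusted p = 0.000773). Its neighbour on the other strand was called as well, with PWK/PhJ samples at 40, 25 and 60% and a PWK/PhJ mean of 41.7% ± 17.6 (SD, n = 3; limma, adjusted p = 0.0163). Here both strands were called. At the other 6 called positions with a shared partner on the opposite strand, Hoxd10 included, the partner did not pass, with limma adjusted p from 0.0739 (Hoxa3 and Hoxa4) to 0.896 (Hoxd10). The partner in Hoxc10 was at 11.2% in NOD/ShiLtJ against 39.0% at the called position, and that in Hoxa11 at 26.3% in PWK/PhJ against 31.8%.

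A second stretch of Hoxa3 held 2 called positions 40 bases apart. At the wider of them (chr6:52185469) NZO/HlLtJ samples were at 43.8, 64.3 and 66.7%, 129S1/SvImJ samples at 45.5, 46.7 and 50%, and C57BL/6J samples at 0, 22.2 and 10% (limma, adjusted p = 0.0319). NZO/HlLtJ and 129S1/SvImJ stood above C57BL/6J without overlap. The 1 kb tile around them, of 10 positions, had a mean of 30.1% ± 2.75 in NZO/HlLtJ and 13.7% ± 1.00 in WSB/EiJ (SD, n = 3; limma, adjusted p = 3.47e-05). Its range of 16.4 points missed the 25 points demanded of a tile. Within Hoxa4, whose span lies inside that of Hoxa3, a position (chr6:52190592) was at 50, 53.3 and 70% in A/J and at 6.67 to 44.4% in the other samples (limma, adjusted p = 0.0493).

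At the remaining positions the spread within strains varied. Within Hoxd12, a digit gene (chr2:74676014), the 129S1/SvImJ samples were at 28.6, 100 and 33.3%, PWK/PhJ samples at 43.8, 64.3 and 70% and DBA/2J samples at 0 (limma, adjusted p = 0.0346). Within Hoxa11, a forearm gene (chr6:52245175), PWK/PhJ samples were at 38.5, 23.5 and 33.3% and WSB/EiJ samples at 0, 5.00 and 3.12% (limma, adjusted p = 0.0271). In the window of Hoxc10 (chr15:102965243) the NOD/ShiLtJ samples were at 20, 40 and 57.1% and the WSB/EiJ samples at 0, 0 and 9.09% (limma, adjusted p = 0.0375). In Hoxc10 NOD/ShiLtJ overlapped with A/J, C57BL/6J and CAST/EiJ and met DBA/2J at 20%. In Hoxa11 PWK/PhJ overlapped with A/J and NOD/ShiLtJ.

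Within Hoxc8, a gene of brachial motor neurons (chr15:102991258), NOD/ShiLtJ samples were at 25, 42.9 and 28.6% and all samples of A/J, C57BL/6J and CAST/EiJ at 0 (limma, adjusted p = 0.0489). In the window of Hoxc12 (chr15:102939801) A/J samples were at 30, 45.5 and 20% and C57BL/6J samples at 0 (limma, adjusted p = 0.0349). At neither position did the highest strain separate from all others.

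At the scale of 1 kb tiles no Hox tile was called. With limma, 0 of 167 Hox tiles tested passed at an adjusted p under 0.05 with strain means at least 25 points apart, against 7.73% of the 47116 tiles tested. An adjusted p alone was reached by 21 Hox tiles (12.6%), against 25.7% of all tiles. An unadjusted p under 0.05 was reached by 48 of the 167 Hox tiles, against 17437 of all 47116 tiles. The largest range was 24.5 points, in a tile of 6 positions between Hoxb6 and Hoxb7 (limma, adjusted p = 0.0676), so the 25-point demand was missed by little there. Tiles were mostly low: the median mean of 173 Hox tiles was 5.29%, and 5 tiles had a mean above 20%. The 36.0% tile beside Hoxb13 was the highest.

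Besides 164 positions with a mean of 20 to 50%, which lay in all 4 clusters (55 in Hoxa, 41 in Hoxb, 34 in Hoxc and 34 in Hoxd), few positions were higher. The 7 positions with a mean of 50% or more lay in the windows of Hoxa3 (2 positions, of which 1 also in that of Hoxa5), Hoxa9, Hoxb8, Hoxb13 (2 positions) and Hoxc4. The highest, at 75.1% (chr6:52199962), had 2 other shared positions within 100 bp, and the next, at 73.6% (chr6:52184742), had 0. None of the 7 passed the test between strains. The Hoxa9 position, at 51.7%, was an exception in density with 28 neighbours, and its partner on the other strand was at 49.9%.

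Positions missing from a strain were less frequent in the Hox windows than in the genome. C57BL/6J samples shared 6473 Hox positions, of which 199 (3.07%) were listed in no PWK/PhJ sample and 176 (2.72%) in no CAST/EiJ sample, against 12.0% and 12.1% over the whole series. For the other 6 strains the Hox share was 0.479 to 0.726%, against 3.74 to 5.49% over the whole series. In the other direction, 273 Hox positions were listed in all PWK/PhJ samples and no C57BL/6J sample, with a mean of 9.62%, and 222 in all CAST/EiJ samples, with a mean of 8.08%. The 3442 Hox positions outside the shared set had a mean of 9.69%. Of these, 81 (2.35%) had a mean of 80% or more, and 42 of the 81 were listed in a single sample.

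Genes that neighbour or work with the Hox genes were read in the same way, beside 38.3% of all genes tested that passed with an adjusted p under 0.05 and 15.8% that were called. Evx1 and Evx2, homeobox genes at the posterior ends of Hoxa and Hoxd, and 13 noncoding RNA genes inside or beside the clusters all had means under 10%, from 2.86% for the microRNA gene Mir196a-2 to 7.66% for Hotair, a long noncoding RNA of the Hoxc cluster. Both Evx genes passed with an adjusted p under 0.05 and neither was called, since their ranges were under 5 points. Of 9 genes for Hox cofactors (Pbx, Meis and Pknox, which bind DNA together with Hox proteins), 6 passed and 3 were called. The called one with the widest range was Meis2, at 27% in NZO/HlLtJ and 18.9% in WSB/EiJ (limma, adjusted p = 1.36e-09).

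All 6 ParaHox genes, the sister group of the Hox genes, passed and 3 were called, with the widest range in Cdx4, at 54.0% in A/J and 36.9% in DBA/2J (limma, adjusted p = 0.0154). Of 18 Polycomb and trithorax regulators, the proteins that keep Hox genes off or on, 10 passed and 0 were called by limma. Their means ran from 0.455% for Suz12, a subunit of the Polycomb methyltransferase, to 33.9% for Kdm6b, a demethylase that removes its mark. Among the other developmental factors 3 of 67 were called, with the widest range in Sox15, at 85.6% in CAST/EiJ and 73.7% in C57BL/6J (limma, adjusted p = 0.0462).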

How the data were processed

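Per the labels' protocols, hepatocyte DNA was cut with MspI and made into RRBS libraries. The submitters' processing notes name Trim Galore 0.6.3, Bowtie2, Bismark 0.22 and the builds GRCm38 and mm10. A coverage filter is not given in the sources used here. The authors deposited a percent methylation per position and sample, without counts.

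Both strands of a CpG were kept as separate positions. Of 326999 positions listed in all 3 C57BL/6J samples inside RefSeq promoter sequences of GRCm38.p6, 99.95% fell on a CpG. The test was limma's moderated F (limma 3.58.1, R 4.3.3; recomputed with pandas 2.3.3, scipy 1.17.1 and numpy 2.4.6 under Python 3.11.15, with the same 38704 positions and 6254 genes under 0.05) on log2((percent + 5)/(100 - percent + 5)), with strain as a factor, 27 samples, 18 residual degrees of freedom and Benjamini-Hochberg adjustment over all features. Positions and 1 kb tiles (at least 5 positions) with a mean of 2 to 98% were tested. A call needed an adjusted p under 0.05 and a range of strain means of 25 points (positions, tiles) or 5 points (genes). Levels of whole clusters were not tested. Named were the lowest and highest gene of each cluster, every called gene, the widest called position in each 1 kb tile and, from other lists, the called member with the widest range or else the extremes. Hoxa4, single promoters and the positions of 50% or more were chosen after their values were seen. The members and lists were chosen with earlier results of these data known. The test was tested on simulated data. Alternatives changed the offset, scale, filters, windows, strands and samples. Between samples of 1 strain, 52.6 to 64.6% of shared positions held identical values, so none was a copy. The p-values measure only the spread between the biological replicates named in the labels.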

Additional observations from a re-analysis of the deposited data

How the results depend on the processing

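Depth is unknown, so how far it limits single positions cannot be stated. At an adjusted p under 0.05, 34 Hox genes passed in the main fit (38.3% of all genes tested). The count of Hox genes that passed stayed within 28 to 38 over all alternatives run. It was 38 with 5 kb on either side (41.9% of all genes) and 29 at an adjusted p under 0.01 (26.7%). It was 28 after centring samples on their median gene (39.2% of all genes) and 31 under the replicate block (33.2%). The blocked fit gave 8 called Hox positions (3.46% of all positions tested), of which 4 were among the 12. It gave 1 called Hox gene (14.3% of all genes) and 0 called Hox tiles (7.41% of all tiles). Same-numbered samples of different strains had a mean correlation of 0.000922, against -0.000281 for different numbers, and 9 of 26 samples correlated best with their own number. Whether the numbers mark batches cannot be told from this. The Hox genes in which all PWK/PhJ samples lay above all WSB/EiJ samples numbered 33 to 38, against 36 in the main fit (33.2% of all genes tested). Under these alternatives the share over all genes was not computed. Over all positions tested 4.56% were called in the main fit. Called Hox positions moved from 12 to 5 with an offset of 1 point (2.67% of all positions) and 25 on untransformed percent (5.6%). They moved to 22 with a range of 10 points or no minimum (5.02%). Without the filter on the mean they numbered 6 (1.49%), and at an adjusted p under 0.01 they numbered 3 (2.71%). When 1 sample was left out they numbered 7 to 17 (4.03 to 4.71%). Called Hox genes moved from 1 (15.8% of all genes tested) to 0 with a range of 10 points (7.23%) and 34 with none (38.3%). They numbered 0 with 5 kb on either side (16.6%) and 0 to 2 when 1 sample was left out (15 to 16.1%). Called Hox tiles moved from 0 (7.73% of all tiles tested) to 5 with a range of 10 points (20.3%) and to 1 with at least 3 positions per tile (7.77%). They stood at 0 to 1 when 1 sample was left out (7.63 to 7.95%), with 1 without PWK/PhJ replicate 1 or WSB/EiJ replicate 4. The Hoxb mean was 5.25% over gene spans alone, and the share of Hox positions under 10% became 66.5% under 5% and 97.0% under 20%. The causes were not tested, beyond the limits themselves. WSB/EiJ was the lowest strain in all 4 clusters under each alternative position set. The alternatives for the count of 34 and for the PWK/PhJ and WSB/EiJ order were chosen after seeing the data.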

Other observations

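Eed, a core subunit of the Polycomb complex that marks the silent Hox clusters, was chosen after its values were seen. Its window of 106 positions was at 4.46% ± 0.922 (SD, n = 3) in PWK/PhJ, with samples from 3.47 to 5.30%. The other 24 samples lay between 0.0449 and 0.778%, without overlap (limma, adjusted p = 5.99e-10). The range of 4.29 points stayed under the 5 points demanded of a gene. At 6 of the 106 positions all PWK/PhJ samples stood at least 25 points above every other sample. Over all positions tested, 0.418% stood apart by this much in 1 strain, above or below, with an adjusted p under 0.05. Among all genes tested, 38.3% reached an adjusted p under 0.05. The Eed numbers were not related to the Hox levels by any test.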
